A study of Mus musculus with 9 samples.

Results

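The genes described here are 10 that tissue macrophages and microglia express: Adgre1, Trem2, Csf1r, Cd68, C1qa, C1qb, C1qc, Tyrobp, Cx3cr1 and Mrc1. They were found as the probe sets (sets of short probes read out as 1 value) to which the platform annotation gives a single symbol among these names. That gave 10 of 18193 genes, with 16 of the 45037 probe sets on the array. RNA came from cochleae of male C57BL/6 mice, singly housed, on 9 arrays with 3 per group. The groups were young controls aged 4 months (YC), controls aged 15 months (MC) and calorie-restricted mice aged 15 months (CR). Controls were fed 84 kcal per week, and restricted mice 62 kcal, which is 26% less, from 2 months of age. Each array carried a pool of 4 cochleae from 2 mice, so the spread between arrays is that between pools.

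Macrophages live in the spiral ligament, the stria vascularis and the auditory nerve of the cochlea, where they take up debris and survey the tissue. Their survival depends on the receptor CSF1R, and they sense lipids and damaged cells through TREM2, which signals through the adaptor TYROBP. They are also a main source of C1q, the recognition molecule of the classical complement pathway, which binds antibody complexes, dying cells and, in the nervous system, synapses. C1q is built from 3 kinds of chain, encoded by C1qa, C1qb and C1qc. In the RefSeq table (GRCm38.p6) these genes lie side by side on chromosome 4 in the order C1qb, C1qc, C1qa, with 0 other genes between them.

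Mean Adgre1 and Trem2 were lower in restricted cochleae than in either control group, without passing the threshold. For the other 8 genes the interval of the difference between CR and MC included 0. Adgre1 was 1.96-fold lower in CR than in MC, with the groups apart (n = 3 arrays each, limma, adjusted p = 0.146). Trem2 was 5.31-fold lower, also without overlap (adjusted p = 0.156). Between 4 and 15 months none of the 10 genes passed, and the groups overlapped in each. A transcript level in whole tissue does not separate fewer macrophages from less RNA per macrophage.

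Array facts bear on all values. By median signal the arrays formed a low class of 4 (YC 1 and the 3 CR arrays, up to 626.6) and a high class of 5 (the other YC and the 3 MC arrays, from 842.4). Class and group therefore cannot be told apart between CR and MC, and YC 1 is the only control in the low class. A fit with array class as a term takes its class difference from YC 1 against YC 2 and YC 3 alone. YC 2 stood apart, with a mean correlation of 0.732 to the other arrays against 0.771 to 0.831 for the rest. Skeletal muscle transcripts were lower and brain tissue transcripts higher in CR, as given below. Of 20 cochlear marker genes 16 passed the signal filter, among them Coch, Otos and Kcnj10, and Tecta, Kcne1, Slc26a5 and Pou4f3 did not.

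Levels are given as the deposited linear signal, and changes as differences of quantile normalized log2(signal + 16). Each gene is represented by its brightest probe set, and the levels of different genes are not comparable on this array. All 10 brightest probe sets passed the signal filter, which used the mean over the 9 arrays. Of the 6 further probe sets, 1 of Trem2 and 1 of Cx3cr1 lay under it and were not tested.

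Adgre1 encodes the F4/80 antigen, an adhesion-type receptor used to stain mouse macrophages. Its signal was 3812, 4093 and 4096 in YC 1 to 3 and 3597, 3960 and 4158 in MC 1 to 3. In CR 1 to 3 it was 2130, 2309 and 1802. All 3 restricted arrays lay below all 6 control arrays, already on the deposited scale, and the control groups overlapped. The change was -0.97 ± 0.23 (SE) between CR and MC, with an unadjusted 95% interval of -1.48 to -0.46. Against YC it was -0.99 ± 0.23 (limma, adjusted p = 0.385). YC 1, which shares the low median class with the restricted arrays, lay 0.61 above the highest of them on the normalized log2 scale. Within that class the CR minus YC change was -0.74 ± 0.21 (adjusted p = 0.239), where the single YC array is assumed to vary like the others. With array class as a term the CR minus MC change was -0.59 ± 0.39 (adjusted p = 1). With arrays centred on their median it was -0.29 ± 0.36, in a scaling where the median of all tested probe sets shifted to 0.58.

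Trem2 encodes a surface receptor for lipids and lipoproteins on microglia, osteoclasts and some macrophages. On its brightest probe set, at the 56.4th percentile of mean signal, YC 1 to 3 had 359, 2269 and 1266. MC 1 to 3 had 1290, 1501 and 2817, and CR 1 to 3 had 118, 533 and 211. The restricted arrays were lower than every MC array, but YC 1 lay between CR 2 and the other restricted arrays. The change was -2.41 ± 0.63 between CR and MC (interval -3.81 to -1.01), and -1.81 ± 0.63 between CR and YC (limma, adjusted p = 0.457), where the groups overlapped. The 4 low-median arrays, YC 1 among them, held the 4 lowest Trem2 values. Within the low class the CR minus YC change was -0.80 ± 0.89 (adjusted p = 0.773), again with YC 1 as the only YC array and assumed to vary like the others. With array class as a term the CR minus MC change was -0.89 ± 1.02 (adjusted p = 1). The dimmer probe set, under the signal filter, gave a CR minus MC difference of -1.45 with overlapping groups.

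**Figure D1:**
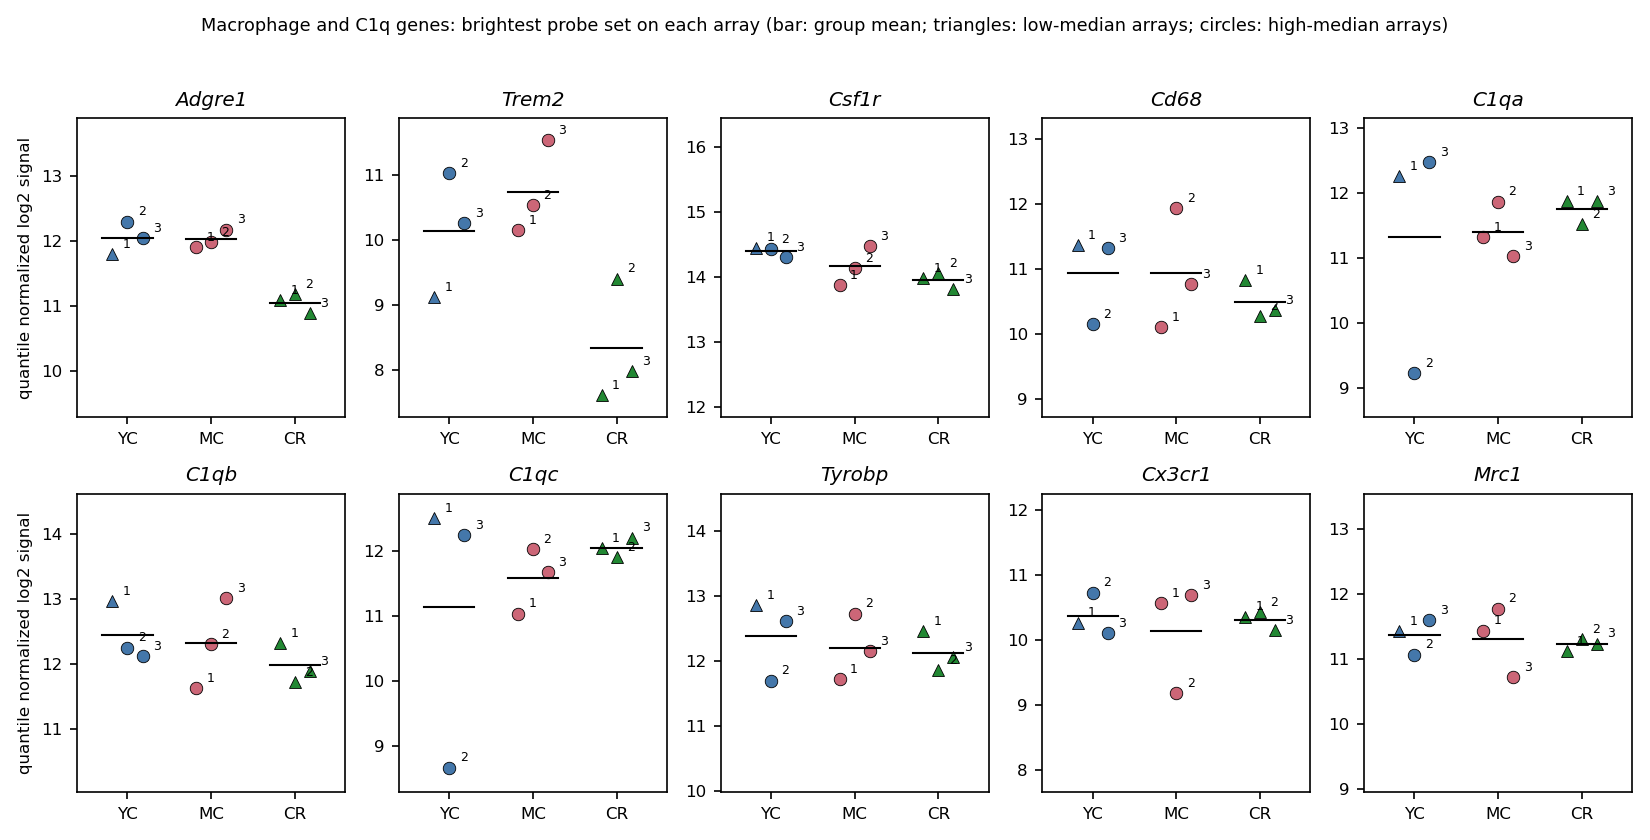
Quantile normalized log2 signal of the brightest probe set of each gene on each array, by group (YC, MC, CR), with replicate numbers, group means as bars, and triangles for low-median and circles for high-median arrays; each panel spans the same number of log2 units. The Adgre1 points of CR lie between 10.89 and 11.19, below all 6 control points (11.80 to 12.30), and the YC 2 points of C1qa and C1qc lie at 9.23 and 8.67, far below the rest.

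Promoters of Trem2 and of 2 neighbouring C1q genes are shown as those of the receptor gene with the lowest CR values relative to MC among the 10 genes and of the C1q genes that the promoter table holds. Each is the 250 bases before the RefSeq start, 5′ to 3′ on the gene's strand (GRCm38.p6). Capitals mark GAGGAA (the core letters of sites for PU.1, the factor that drives macrophage genes) or its reverse complement TTCCTC, and TGTGGT (RUNX) or its reverse complement ACCACA; no marked stretches overlap. The windows are chr17:48346151-48346400 (plus strand) for Trem2, chr4:136886201-136886450 (minus strand) for C1qb and chr4:136892915-136893164 (minus strand) for C1qc.
Trem2: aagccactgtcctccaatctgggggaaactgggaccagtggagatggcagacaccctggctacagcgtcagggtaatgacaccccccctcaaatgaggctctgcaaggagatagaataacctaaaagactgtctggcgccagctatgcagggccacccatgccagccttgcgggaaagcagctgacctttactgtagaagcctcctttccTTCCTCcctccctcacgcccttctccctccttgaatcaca
C1qb: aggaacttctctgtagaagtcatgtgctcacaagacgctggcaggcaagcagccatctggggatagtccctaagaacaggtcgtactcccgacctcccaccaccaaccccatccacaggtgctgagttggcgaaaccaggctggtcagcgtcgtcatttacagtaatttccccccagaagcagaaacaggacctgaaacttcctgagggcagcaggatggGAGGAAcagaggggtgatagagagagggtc
C1qc: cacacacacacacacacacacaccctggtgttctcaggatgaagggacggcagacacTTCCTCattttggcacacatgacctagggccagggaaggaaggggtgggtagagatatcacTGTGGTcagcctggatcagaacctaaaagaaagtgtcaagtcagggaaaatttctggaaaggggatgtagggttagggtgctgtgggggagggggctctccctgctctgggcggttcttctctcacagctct
Each of these windows holds a single GAGGAA in either orientation, starting 40 bases before the Trem2 start, 30 before that of C1qb and 193 before that of C1qc. C1qc also holds TGTGGT, 132 bases before its start. Promoters of 6 of the 10 genes were matched, and C1qa, Adgre1, Csf1r and Tyrobp were not. GAGGAA was found in 5 of the 6 (Trem2, Cd68, C1qb, C1qc and Mrc1), against 23.3% of all 32851 promoter windows of this length, and TGTGGT in 2 (C1qc and Cx3cr1) against 14%. A match of letters is a description and not a bound site.

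The values of the C1q chain genes turned on array YC 2 and on array class. C1qa, encoding the A chain, had 5597, 880 and 5552 in YC 1 to 3, 2532, 3635 and 2136 in MC 1 to 3, and 4120, 3013 and 3975 in CR 1 to 3. C1qc, encoding the C chain, had 6793, 584 and 4723 in YC, 2127, 4054 and 3077 in MC, and 4695, 4097 and 5100 in CR. Both were far lower on YC 2 than on any other array, while YC 1 and YC 3 were high. Normalized without YC 2, those 2 arrays lay above all MC and CR arrays for both genes: C1qa was at 12.30 and 12.52 against at most 11.89 in MC and 11.90 in CR, and C1qc at 12.56 and 12.28 against at most 12.05 and 12.24. Between CR and MC the changes were 0.36 ± 0.69 for C1qa (interval -1.17 to 1.88) and 0.48 ± 0.80 for C1qc (interval -1.29 to 2.24), with adjusted p of 0.791 and 0.757 in limma. These intervals are wide and include the Adgre1 change of -0.97, and the difference between the genes was not tested. With array class as a term all 3 chains were lower in CR than in MC, with C1qa at -1.05, C1qb at -1.11 and C1qc at -1.57 (adjusted p = 1 for each). That term rests on YC 1 against YC 2 and YC 3. For C1qa and C1qc it therefore includes the low YC 2 values, so the dependence on class is not separate from that on YC 2.

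C1qb, encoding the B chain, had 3 probe sets that disagreed on array YC 2. On the one that the annotation pairs with a RefSeq mRNA (the accession-listed set) the signal was 3705, 654 and 5170 in YC 1 to 3, 3202, 5049 and 2061 in MC, and 2441, 2166 and 2690 in CR, and again YC 2 was the lowest. On the brightest, whose name ends in x_at, YC 1 to 3 had 9772, 4016 and 4312, MC 1 to 3 had 3055, 4892 and 7089, and CR 1 to 3 had 5922, 3578 and 4035. On the normalized log2 scale YC 2 was in the middle of the arrays there, and the highest on the other x_at set. This suffix marks probe sets with probes that can match other transcripts as well. Between CR and MC the brightest gave -0.33 ± 0.36 (limma, adjusted p = 0.62) and the accession-listed set gave -0.43 ± 0.75 (adjusted p = 0.768). The other x_at set gave -0.20 ± 0.26 (adjusted p = 0.677), so all 3 had the same direction there. Against YC the changes in CR were -0.47 ± 0.36, 0.26 ± 0.75 and -0.50 ± 0.26 in the same order. Only on the last were the groups apart, with CR lower, as in 9.1% of all probe sets.

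**Figure D2:**
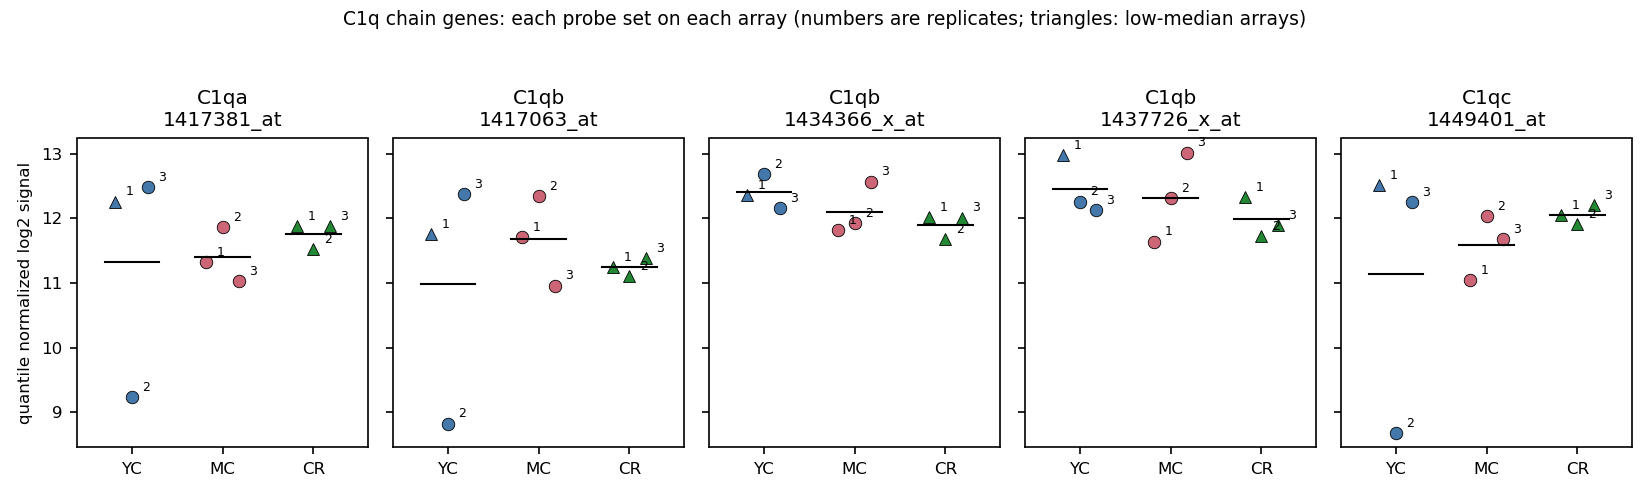
Quantile normalized log2 signal of the 5 probe sets of C1qa, C1qb and C1qc on each array by group, with replicate numbers, group means as bars and triangles for low-median arrays. YC 2 lies at 9.23, 8.82 and 8.67 on the C1qa, accession-listed C1qb and C1qc probe sets, but at 12.69 and 12.26 on the x_at sets of C1qb.

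The gap between YC 2 and the next lowest array was 1.80 for C1qa, 2.14 for the accession-listed set of C1qb and 2.36 for C1qc in log2 units, larger than the range of the other 8 arrays in each case (1.45, 1.42 and 1.47). YC 2 was the lowest array for 25.6% of all tested probe sets, and by more than 2 log2 units for 2.16%. The part of array quality in the low C1q values of YC 2 was not tested. Without YC 2, C1qa was -1.0 ± 0.29 and C1qc -0.83 ± 0.30 in MC against YC, with adjusted p of 0.445 and 0.457 in limma. The difference with age on that set of C1qb was then -0.41 ± 0.38. With YC 2 these changes were 0.08 ± 0.69, 0.44 ± 0.80 and 0.69 ± 0.75, so the direction of the age difference in C1qa, C1qc and this probe set of C1qb turned on that array. In the same way the CR minus YC changes were 0.44 and 0.91 for C1qa and C1qc with YC 2, and -0.63 and -0.34 without it.

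Csf1r encodes the receptor for the growth factors CSF1 and IL-34. Its signal was 28869, 14029 and 20356 in YC 1 to 3, 13327, 17479 and 20430 in MC 1 to 3, and 19516, 19208 and 16423 in CR 1 to 3. The groups overlapped between CR and MC (-0.22 ± 0.18, interval -0.63 to 0.19, limma adjusted p = 0.518). On the normalized scale CR lay below YC on all arrays by a small margin (-0.44 ± 0.18, adjusted p = 0.459). The other Csf1r probe sets gave 0.07 ± 0.26 and -0.37 ± 0.25 between CR and MC, so they differed in sign. The set at -0.37 is the only one of Csf1r for which the annotation lists a sequence. On it CR lay below MC without overlap (limma, adjusted p = 0.434), as did 18.2% of all probe sets. Arrays centred on their median turned the brightest to 0.74.

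Tyrobp encodes the adaptor through which TREM2 signals. It had 8971, 3082 and 6113 in YC 1 to 3, 3212, 6633 and 4089 in MC 1 to 3, and 6557, 3946 and 4600 in CR 1 to 3. Its values overlapped in all 3 comparisons, and the CR minus MC change was -0.07 ± 0.35 (interval -0.84 to 0.70, limma adjusted p = 0.919). With array class as a term it was -0.77 ± 0.59, and with the array median as a covariate -0.80 ± 0.36, beside -0.89 ± 1.02 and -1.16 ± 0.68 for its receptor partner Trem2. The class term rests on YC 1 against YC 2 and YC 3. For Tyrobp, YC 1 was the highest of all arrays (12.86) and YC 2 the lowest (11.70) on the normalized log2 scale. The difference between the changes of these genes was not tested.

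Cd68, encoding a lysosomal glycoprotein of phagocytes, ranged from 1502 to 2644 in YC, from 1261 to 3804 in MC and from 1076 to 1699 in CR. The CR minus MC change was -0.45 ± 0.49 (limma, adjusted p = 0.619), with overlap. Cx3cr1 encodes the fractalkine receptor of microglia and monocytes. It ranged from 977 to 1979 in YC, from 653 to 1776 in MC and from 976 to 1227 in CR, a change of 0.16 ± 0.43 (adjusted p = 0.851). Mrc1, encoding the mannose receptor of tissue-resident macrophages, ranged from 2318 to 3025 in YC, from 1803 to 3424 in MC and from 2204 to 2543 in CR, a change of -0.09 ± 0.31 (adjusted p = 0.89). In each of the 3 genes the restricted arrays spanned a narrower range of signal than the MC arrays and overlapped them. This is not particular to these genes. Array weights, larger for arrays that vary less over all tested probe sets, were 2.78 to 4.33 in CR. They were 0.25 to 1.27 in the control arrays, from an estimation that stopped before it converged. The dimmer Cx3cr1 probe set, under the filter, had signals from 27 to 812 in YC, from 66 to 442 in MC and from 212 to 454 in CR. Its CR minus MC difference of 1.85, with overlapping groups and no test, was far from the 0.16 of the brightest set.

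Over the 10 genes, 7 were lower and 3 higher in CR than in MC, with a median log2 change of -0.15 beside 0.08 over all 27022 probe sets tested. This count turned with the processing: 3 were lower and 7 higher with arrays centred on their median (median 0.52 beside 0.58), and 9 lower and 1 higher with array class as a term (median -0.83 beside -0.03). None passed the threshold (adjusted p under 0.05, which 0.0925% of all probe sets did), and 2 had an unadjusted p under 0.05, as had 5007 of all probe sets (18.5%). Groups that did not overlap, with CR lower, were seen in 2 of the 10 and in 18.2% of all probe sets, and with CR higher in 0 and in 19.5%. The share with CR lower is near that of all probe sets, and the share with CR higher is below it, in a list of only 10 genes. Between CR and YC, 8 genes were lower and 2 higher (median -0.35), and 3 were lower and 7 higher with arrays centred on their median. There 0 of 10 passed with limma (0% of all probe sets). An unadjusted p below 0.05 was found for 3 of them and for 2910 of all probe sets. The groups were apart with CR lower in 2 genes (9.1% of all probe sets) and with CR higher in 0 (11.4%). This comparison and the others share samples, so they are not independent.

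With age no member stood apart. Of the 10 genes 7 were lower and 3 higher in MC than in YC, with a median of -0.04 beside 0.02 over all probe sets. Trem2 had the largest difference of the 10, 0.60 ± 0.63, and the values of the others lay between -0.22 and 0.44. It was 0.09 without YC 1 or with array class as a term, 0.20 without MC 3, 0.91 without MC 1 and 1.08 without YC 2, where C1qa at -1.0 was about as large in size. By limma the adjusted p was 1 for all 10, and for 0 of them was the unadjusted p below 0.05. Over all probe sets 0% passed, and 915 had an unadjusted p under 0.05. The groups overlapped in all 10 genes, while 2.92% of all probe sets were apart with MC lower and 2.97% with MC higher.

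**Figure D3:**
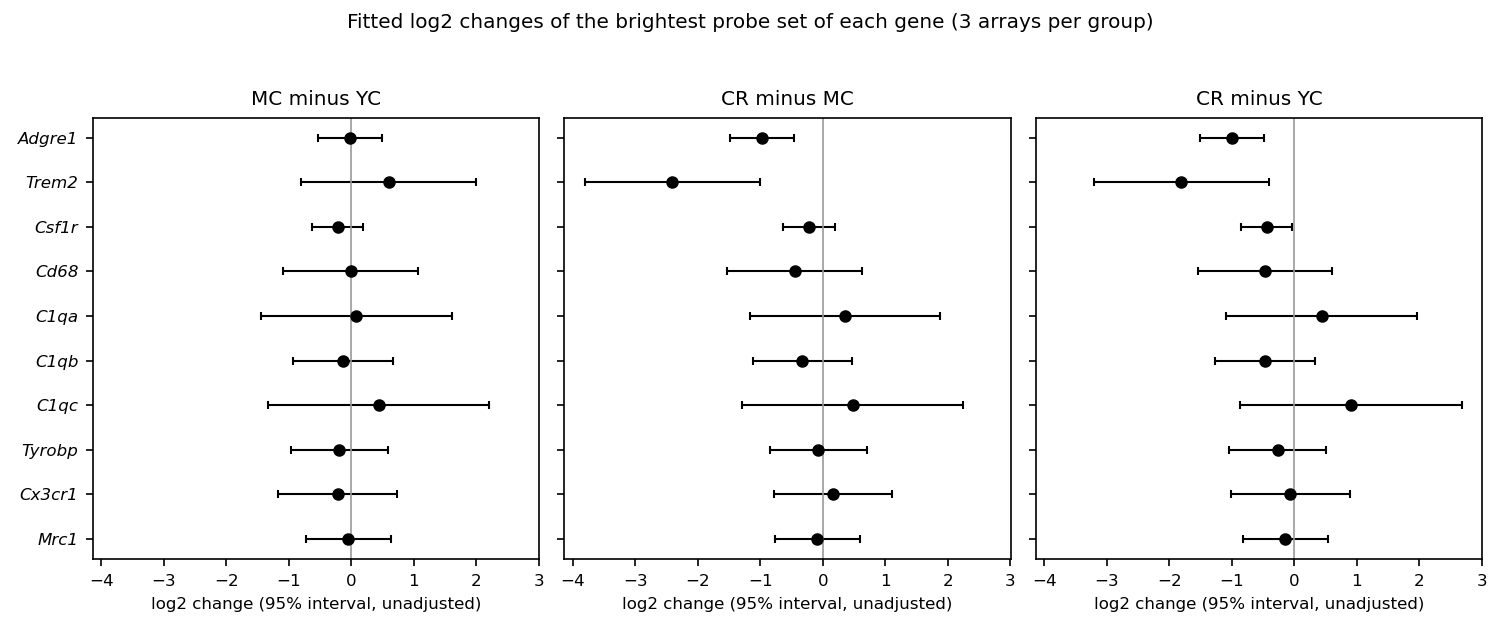
Log2 changes of the brightest probe set of each gene for age (MC minus YC) and for restriction against each control group, as points with 95% unadjusted intervals from the fit of all 9 arrays. For CR minus MC the intervals of Adgre1 (-1.48 to -0.46) and Trem2 (-3.81 to -1.01) lie below 0, and those of the other 8 genes include 0.

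The call depended on YC 2. Without it the CR minus MC changes were -1.01 ± 0.21 for Adgre1 (limma, adjusted p = 0.0369) and -2.44 ± 0.59 for Trem2 (adjusted p = 0.0478). These values were nearly the same as with it, and 1147 probe sets (4.24%) then passed in place of 25. Both genes also passed with only the CR and MC arrays in the fit (adjusted p = 0.0291 and 0.0428), where 1846 of 27022 probe sets passed. With array weights, whose estimation stopped before it converged, both passed too (adjusted p = 0.0127 and 0.031), as did 3397 probe sets. In all, 3 of 22 alternatives passed for Adgre1 and 3 of 20 for Trem2. Neither gene passed with array class as a term, where 0 probe sets passed. Trem2 could not be fitted with the filter at the 60th percentile or by the mean of its probe sets, since it then lay under the filter.

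**Figure D4:**
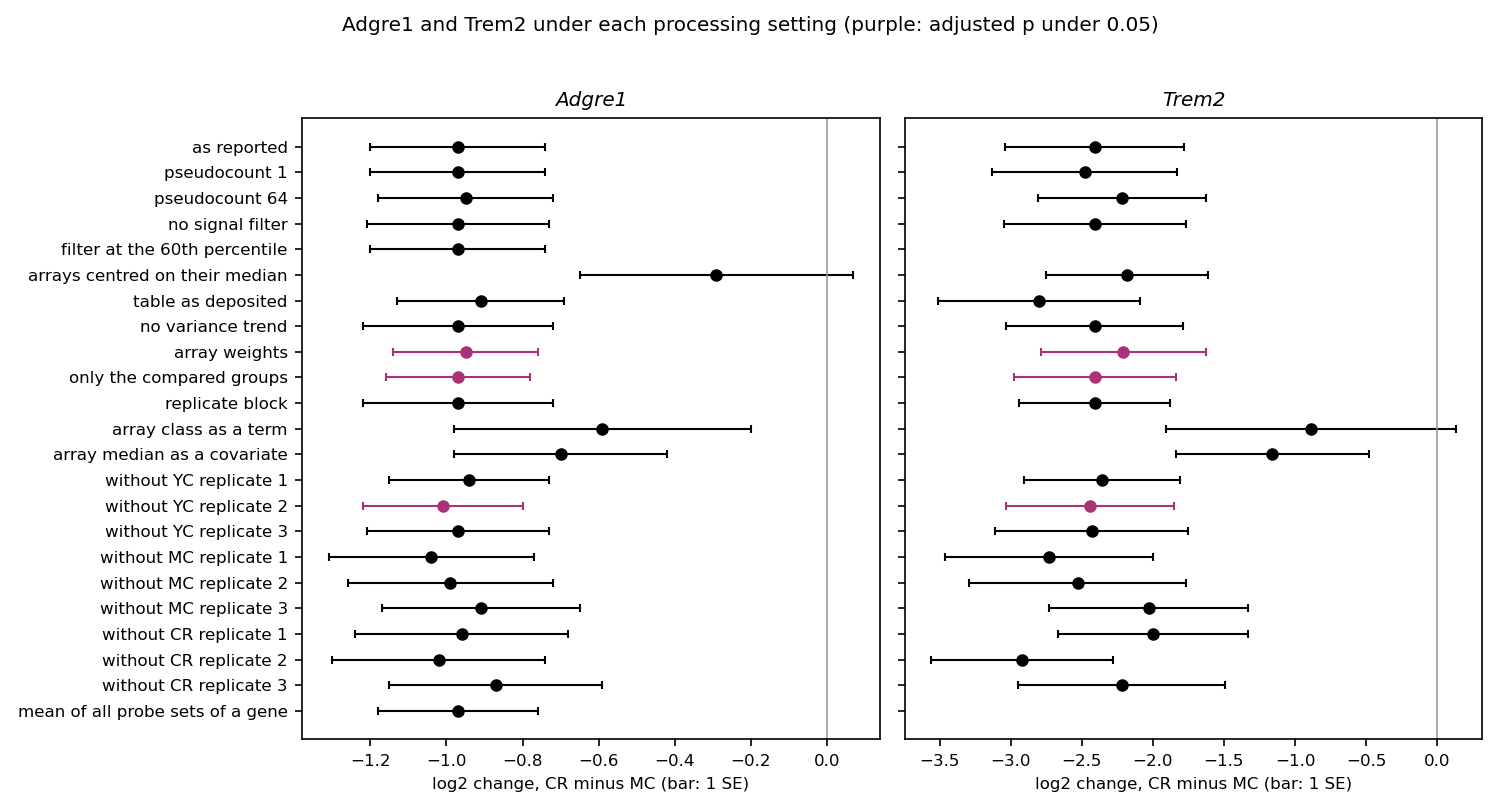
Log2 change of Adgre1 and Trem2 between CR and MC under each processing setting, as points with 1 SE, in purple where the adjusted p was under 0.05. Adgre1 lies between -1.04 and -0.29 and Trem2 between -2.92 and -0.89; Trem2 lay under the filter at the 60th percentile and by the mean of its probe sets.

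Other macrophage and microglia genes were counted over a list of 48, of which 45 had a probe set and 41 were tested. Between CR and MC 31 of the 41 were lower and 10 higher, with a median of -0.45 beside 0.08 over all probe sets. None was called in limma, 9 were lower and 1 higher at an unadjusted p under 0.05. Of the 41, 18 (43.9%) were lower without overlap and 2 higher. Over all probe sets 18.5% had such a p, 18.2% were lower without overlap and 19.5% higher. The genes with the smallest p were Gpnmb, a glycoprotein of lipid-laden macrophages (-0.86 ± 0.25), Fcgr2b, the inhibitory receptor for IgG (-1.19 ± 0.36), and Folr2, a folate receptor of resident macrophages (-1.38 ± 0.43). Their adjusted p was 0.174, 0.182 and 0.184.

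Folr2 had 1388, 1167 and 1353 in MC 1 to 3 and 267, 423 and 310 in CR 1 to 3. In YC 1 to 3 it had 869, 714 and 882, between the other groups. Fcgr2b had 4079, 3952 and 4287 in MC and 1497, 1885 and 2188 in CR. YC 1 (1810) lay among the restricted arrays, while YC 2 and 3 had 4653 and 3778. Gpnmb had 4434, 7316 and 6031 in MC and 4633, 3021 and 3614 in CR, and YC 1 (4313) again lay among the restricted arrays. Its MC and CR signals overlapped, and the groups were apart only after normalization. So in signal Folr2 was lower in CR than in YC 1 of the same median class, and Fcgr2b and Gpnmb were not.

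Without YC 2 only Fcgr2b of the 41 passed (-1.24 ± 0.28, limma, adjusted p = 0.0447), where 4.24% of all probe sets passed. With array class as a term 35 of the 41 were lower in CR than in MC (median -0.51). In the table as deposited it was 33 of 41. With arrays centred on their median 19 were lower, with a median of 0.11 beside 0.58 over all probe sets, so the direction of this list turned with the scaling while its median stayed below that of all probe sets. With age, 18 were lower and 23 higher (median 0.04), none called. Laptm5, a lysosomal membrane protein of blood cells (-0.66 ± 0.22), and Tmem119, a marker of microglia (-0.68 ± 0.32), had the smallest p there, with an adjusted p of 1 each.

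The complement list of 34 genes had 29 with a probe set and 21 tested. In CR against MC 11 were lower and 10 higher (median -0.07), none called, 3 higher and 1 lower at an unadjusted p under 0.05. With median centring 6 of the 22 then tested were lower and 16 higher (median 0.68). Those with the smallest p were higher in CR: Masp1, a protease of the lectin pathway (1.89 ± 0.65), Vtn, vitronectin (0.71 ± 0.25), and Clu, clusterin (0.48 ± 0.17), the last 2 inhibitors of the terminal complex. Their adjusted p was 0.199, 0.208 and 0.208 in limma. The gene that was lower at such a p was Cr2, a complement receptor of B cells and follicular dendritic cells, at -2.14 ± 0.77 without overlap (adjusted p = 0.209). It lies outside the naming rule and was named with its values known. C1ra and C1s1, the proteases that C1q activates, were at 1.67 ± 1.14 and 0.65 ± 0.60, and their inhibitor Serping1 at 0.24 ± 0.21; these were chosen as partners of C1q after their values were seen. With age 13 complement genes were lower and 8 higher (median -0.06), none called, with Masp1 at -1.39 ± 0.65 and Cd55, a surface inhibitor of complement, at 0.71 ± 0.39.

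Ligands and signalling partners of the receptors were a list of 22 genes, 19 of them tested. Between CR and MC 11 were lower and 8 higher (median -0.51, but -0.03 with array class as a term and 0.18 with median centring), none called, 3 lower at an unadjusted p under 0.05. Ptpn6, a phosphatase that restrains such signals, was at -0.70 ± 0.27, the TYROBP-coupled receptor gene Cd300lb at -0.86 ± 0.35 and Vav1, an exchange factor, at -0.97 ± 0.42. The ligand genes, chosen after their values were seen, were Csf1 (-0.94 ± 0.65) and Cx3cl1 (0.74 ± 0.54), both with overlap, and Il34 lay under the filter. With age Syk, the kinase that TYROBP recruits, was at -0.85 ± 0.38 and Inpp5d, a lipid phosphatase, at 0.64 ± 0.42, with 11 lower and 8 higher (median -0.06) and none called. Lysosomal genes, 18 of 20 tested, had 7 lower and 11 higher in CR (median 0.10) and 8 lower and 10 higher with age (median 0.03), none called in limma. Cst3, a protease inhibitor, was at 0.34 ± 0.18 and Ctsd, a lysosomal protease, at -0.37 ± 0.20 in CR against MC, and 0 of the 18 had an unadjusted p under 0.05. The lysosomal count between CR and MC depended on the scaling: 1 was lower and 17 higher in the table as deposited (median 0.33), 0 and 18 with median centring (0.95), and 13 and 5 with array class as a term (-0.37).

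**Figure D5:**
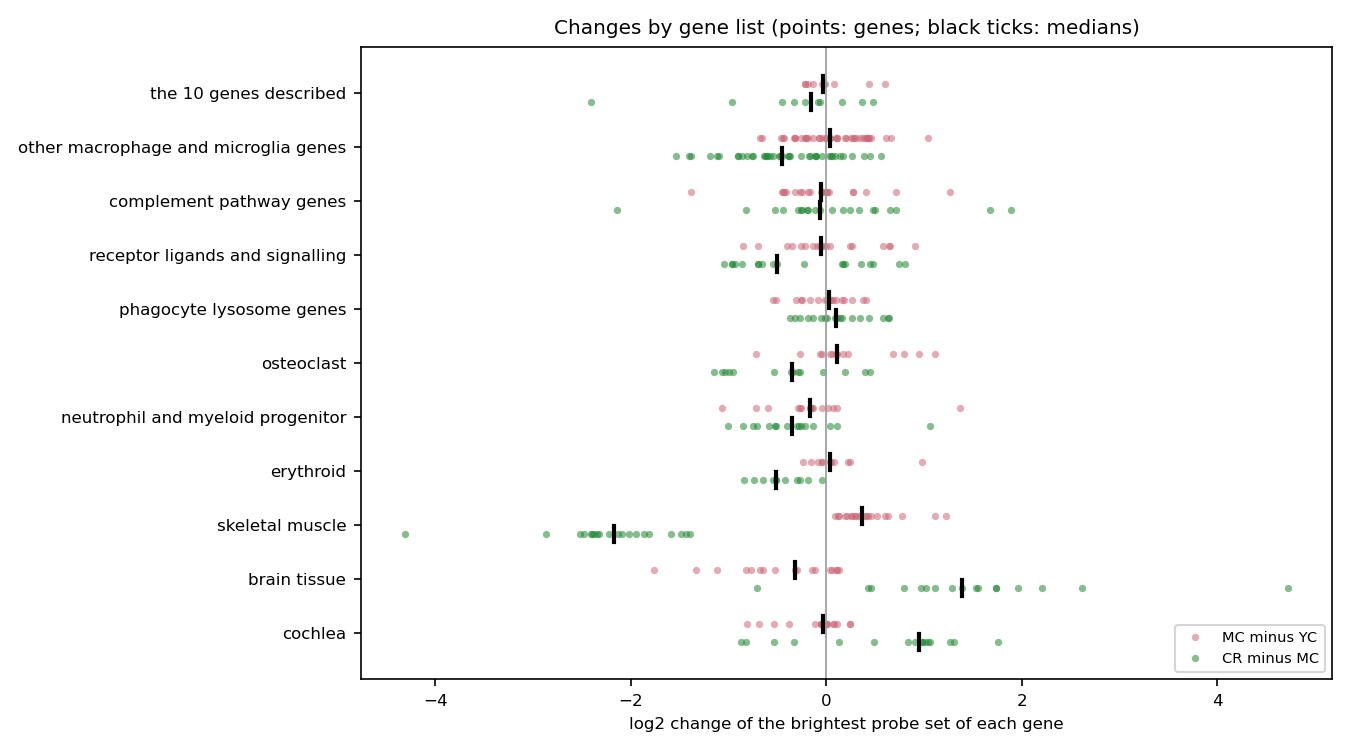
Log2 change of the brightest probe set of every tested gene in each list, for MC minus YC (red) and CR minus MC (green), with medians as black ticks. For CR minus MC the median of other macrophage genes is -0.45, of skeletal muscle -2.18 and of brain tissue 1.39.

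Markers of other cells were counted in the same comparison. Osteoclasts share Csf1r, Trem2 and Tyrobp with macrophages, and 11 of 14 tested osteoclast genes were lower in CR than in MC (median -0.35, none called). Of these Tnfrsf11a, the receptor for the osteoclast factor RANKL, was at -1.07 ± 0.36 (limma, adjusted p = 0.192). The 3 that were higher were Mitf (0.45 ± 0.46), Acp5 (0.39 ± 0.68) and Ctsk (0.19 ± 0.35). They were named as the ones that went the other way, after their values were seen. The summed signal of the 16 osteoclast genes was 54262 to 68360 in CR and 53131 to 81534 in MC. Neutrophil genes were lower in 13 of 16 (median -0.35) and erythroid genes in 11 of 11 (median -0.52), none called. With arrays centred on their median the directions turned, with 3 of 16 neutrophil genes lower (median 0.30), 4 of 11 erythroid (0.12) and 5 of 14 osteoclast (0.23), beside 0.58 over all probe sets. With array class as a term they were 16 (median -1.13), 8 (-1.02) and 10 (-0.62). The summed signals of neutrophil and erythroid genes were 230150 to 349518 and 53422 to 84235 in CR, and 219456 to 423024 and 64812 to 97587 in MC.

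The summed signal of the 10 genes described was 40682 to 48055 in CR, 34746 to 50035 in MC and 34752 to 70613 in YC, overlapping throughout. For the other macrophage genes it was 248238 to 260610 in CR, below all MC arrays (269824 to 405550), while YC ran from 239333 to 374969. Skeletal muscle genes were lower in 20 of 20 (median -2.18), 14 of them called, 0 with array class as a term and 20 without YC 2, with sums of 373498 to 576970 in CR against 1233602 to 1944544 in MC. Brain tissue genes were higher in 16 of 17 (median 1.39, none called, but 8 called higher without YC 2), with 112951 to 188579 against 43490 to 47002. Cochlear genes were higher in 12 of 16 (median 0.94, none called, but 2 called higher without YC 2), with 179423 to 236756 against 97403 to 108411. Of all probe sets 0.0925% were called in the main fit, 4.24% without YC 2 and 0% with array class as a term. With arrays centred on their median, 0 genes of these lists were called, and 0% of all probe sets. The part that the shares of muscle, brain and cochlear tissue have in the Adgre1 and Trem2 values was not tested.

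The genes whose profile over the 9 arrays was most like the mean of C1qa, C1qb and C1qc, each standardised, were Tnfaip6, Tm7sf2, Marf1, Nfe2, Klf1 and Fam126a, among 13692 genes compared. Pearson r ran from 0.951 to 0.984 over 9 arrays and from 0.884 to 0.987 over the 8 arrays without YC 2, and all 6 were lower on YC 2 than the median of the other arrays. The 6 genes were chosen for the highest r over the 9 arrays, so high values follow from the choice. The 8 arrays are among those 9 and give no separate check. With C1qb represented by its accession-listed set, a choice made after its values were seen, the 6 genes were Pcx, Nubp1, Carhsp1, Dctn2, Sh3bp1 and Sec61b (r from 0.982 to 0.989, and from 0.883 to 0.949 without YC 2). The list of like genes thus depended on the probe set and shared the low YC 2 array with C1q.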

How the data were processed

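Total RNA of pooled cochleae was labelled with biotin and hybridised to 1-colour arrays, per the labels' protocols. GCOS 1.3 is named by the submitters' processing notes. The sources used here do not give the signal algorithm or the scaling target. Each probe set has a deposited intensity on a linear scale, and array means trimmed by 2% at each end lay between 1494 and 1496. Array medians differed 2.1-fold. The platform annotation gave 1 symbol for 34945 of 45037 probe sets, several for 932 and none for 9160. List symbols were updated by gene ID through the RefSeq table (GRCm38.p6), which matched 34741.

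Values were transformed to log2(signal + 16), which understates changes of dim probe sets, and quantile normalized. A filter at the 40th percentile of the mean over all arrays left 27022 probe sets, which were fitted in limma 3.58.1 under R 4.3.3 (3 group means over 9 arrays, eBayes with a variance trend), with Benjamini-Hochberg adjustment over all of them and a threshold of 0.05. The pipeline was tested on simulated data. The median SE was 0.43, and the number of arrays limits the precision. Array class divides arrays at the widest gap between medians.

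List genes given with values come from the 3 with the smallest p in CR minus MC and the 2 in MC minus YC. Exceptions are marked where they occur, and not every gene that this rule covers is named. The genes, lists and tests were chosen with earlier results of these data known. Alternatives were other pseudocounts, filters and scalings, array weights, class or median terms, a replicate block, fewer arrays and other probe sets. Same-numbered replicates of different groups did not deviate together (r from -0.29 to 0.27, over 0.1 in 2 of 9 pairs), so the numbers were not taken as pairs.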

Additional observations from a re-analysis of the deposited data

How the results depend on the processing

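The count of called probe sets between CR and MC, 25 as reported (1 higher, 24 lower), was 0 with arrays centred on their median, without a variance trend, with the replicate block, with array class as a term and with the array median as a covariate. It was 7 in the table as deposited (1 higher, 6 lower), 1846 with only the compared groups and 3397 with array weights, whose estimation stopped before it converged. On leaving out 1 array it ran from 0 to 1147: it was 209 without YC 1, 1147 without YC 2, 49 without MC 2, 2 without CR 1 and 0 without MC 1, MC 3, CR 2 or CR 3. Between CR and YC it ran from 0 to 328, the latter without YC 1. Between MC and YC it was 0 in every alternative run. The cause of these shifts was not tested. The replicate block changed no call of the 10 genes.

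Of 674 values of the 10 genes under alternatives, 597 kept their direction and side of the threshold, 6 passed it (Adgre1 and Trem2, CR minus MC) and 71 turned in sign, all of them uncalled. No value for MC minus YC or CR minus YC passed. Adgre1 and Trem2 stayed lower in CR than in either control group under all alternatives in which they were fitted. In the table as deposited the median of all tested probe sets was -0.04 for CR minus MC, against 0.58 with median centring and 0.08 as reported.

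Turned values for MC minus YC were as follows. Array class as a term, and the high median class alone, gave Cd68 0.19, C1qb 0.12 and Tyrobp 0.04. The array median as a covariate gave Cd68 0.27, C1qb 0.02, Tyrobp 0.06 and Mrc1 0.03. Array weights gave Adgre1 0.00, C1qa -0.17, C1qc -0.06 and Mrc1 0.05. Median centring gave C1qa -0.37 and C1qc -0.05, and the table as deposited C1qa -0.16. C1qb was 0.08 by the mean of its probe sets and 0.69 by its accession-listed probe set, an alternative added after the data were seen. On leaving out 1 array the ranges were -0.15 to 0.11 for Adgre1, -0.52 to 0.42 for Cd68, -1.0 to 0.67 for C1qa, -0.49 to 0.21 for C1qb, -0.83 to 1.09 for C1qc, -0.56 to 0.05 for Tyrobp, -0.50 to 0.27 for Cx3cr1 and -0.29 to 0.25 for Mrc1.

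For CR minus MC, median centring gave Csf1r 0.74, C1qb 0.52, Tyrobp 0.77 and Mrc1 0.51, and the table as deposited Csf1r 0.12, Tyrobp 0.15 and Cx3cr1 -0.18. Array class as a term gave C1qa -1.05 and C1qc -1.57, and the array median as a covariate -1.19 and -1.45. On leaving out 1 array the ranges were -0.89 to 0.05 for Cd68, -0.68 to 0.02 for C1qb, -0.32 to 0.19 for Tyrobp, -0.33 to 0.44 for Cx3cr1 and -0.39 to 0.15 for Mrc1. For CR minus YC, median centring gave Csf1r 0.27, C1qb 0.08, Tyrobp 0.24, Cx3cr1 0.15 and Mrc1 0.22. Array class as a term, and the low median class alone, gave C1qa -0.50, C1qc -0.46 and Cx3cr1 0.04, the array median as a covariate -0.58, -0.35 and 0.18, and C1qb by its accession-listed set was 0.26. Leaving out 1 array gave -0.63 to 1.03 for C1qa, -0.34 to 1.55 for C1qc and -0.19 to 0.12 for Cx3cr1.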
